A study of Mus musculus with 38 samples.

Results

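The mitochondrial ribosomal protein genes were followed across ribosome-bound and total RNA from mouse cortex and from 3 mouse glioma models. Every gene on the arrays whose symbol starts with Mrpl or Mrps and a number, pseudogenes apart, was a member: 66 of 15644 genes, each measured by 1 probe set. Of these, 43 are named for the large (Mrpl) and 23 for the small (Mrps) subunit. One, Mrpl41, lay between 2.08 and 4.97 on the log2 scale in every array, below the limit of 5.64 used for dim genes (a signal of 50), and was not tested. The 65 other members passed that limit in at least 3 arrays.

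Mitochondria carry their own ribosomes, which translate the few proteins that mitochondrial DNA encodes, all of them subunits of the respiratory chain and ATP synthase. All proteins of the mitochondrial ribosome are encoded in the nucleus, translated on cytosolic ribosomes and imported. Their mRNAs can therefore be captured together with tagged cytosolic ribosomes, which is what the assay does; the mitochondrial ribosome itself is not what is captured.

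In translating ribosome affinity purification, 1 cell type of a mouse line expresses a tagged cytosolic ribosomal protein, and the mRNA on its ribosomes is pulled down from whole tissue. Cortex of adult mice gave bound RNA of 5 populations, each named in the labels with its reporter line: neurons (Snap25), astrocytes (Aldh1L1), mature oligodendrocytes (Cnp1), oligodendrocyte progenitors (Pdgfra) and the whole oligodendrocyte lineage (Olig2). Bound RNA of Olig2 cells also came from tumours of 3 models, labelled Pdgf, Pdgf Cre and Recruited, and each model had its own total RNA. Each bound group and each tumour total group had 3 arrays, and total RNA of cortex had 5, which served as the control of all 5 cortical populations. The mice had a mixed background of FVB, Swiss-Webster and c57/bl6j; each cortical sample pooled at least 2 mice. Whether the 3 tumour arrays of a group came from separate animals, and the ages of the tumour mice, are not given in the sources used here. The p-values therefore measure the spread between arrays, pooled for each gene over all 12 groups.

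The labelled populations carried their own markers. All 6 astrocyte markers rose in the astrocyte line, all 6 mature oligodendrocyte markers in the Cnp1 line, 5 of 6 progenitor markers in the Pdgfra line, and all 3 lineage markers in the cortical Olig2 line; none of the 6 neuron markers passed the test in the neuron line against cortex total RNA (median 0.15). The 6 mature oligodendrocyte markers also rose in the progenitor line, with a median log2 difference of 2.07. Neuron markers stayed well above the dim limit in 3 of the glial lines: averaged over the list of 6, they lay between 8.98 and 9.23 in progenitors, 9.58 and 9.71 in mature oligodendrocytes and 8.13 and 8.39 in Olig2 cells, against 5.33 to 6.39 in astrocytes and 11.78 to 12.16 in cortex total RNA. Snap25 itself was at 14.67 in progenitors and 14.04 in mature oligodendrocytes, against 15.22 in cortex total RNA. Of the 6, 5 fell in each of the mature and progenitor lines and 6 in each of the astrocyte and Olig2 lines. Astrocyte markers, averaged over their list of 6, lay between 8.47 and 8.66 in cortical Olig2 cells and 7.71 and 8.28 in cortex total RNA. They lay between 6.04 and 6.48 in mature oligodendrocytes and 5.56 and 6.42 in progenitors. Aldh1l1 was at 9.02 in Olig2 cells and 8.26 in cortex total RNA. The part of these neuron, astrocyte and oligodendrocyte markers in the members' values was not tested. Of the 6 microglial markers 5 fell in bound against total RNA of each tumour. None of the 4 endothelial markers was above the dim limit in any bound group, nor in cortex total RNA. In total RNA of each tumour 3 of the 4 were dim too, so their low level in bound RNA tells little. The Recruited total RNA of replicate 3 stood apart: it correlated with the other arrays of its group at 0.861 and 0.885, against 0.957 between those. Its Olig2 level was 9.45, against 12.50 and 12.17. The deposited arrays of each group shared a single lowest value that differed between groups, which is what GCRMA run on each group by itself leaves; a shift from that step and a difference between groups cannot be told apart. The median SD of a gene within a group ran from 0.03 in neurons to 0.45 in Recruited total RNA. A spread pooled over all 12 groups thus understates that of Recruited total RNA and overstates that of neurons for a typical gene. Some deposited values were identical between arrays of a group. In the most alike pair these were 43.0% of tested genes in neurons, the most, and 17.1% in Recruited total RNA, the least. The part of this in the spread and in the p-values was not tested.

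The promoters of the members show which letters they share upstream. Nuclear genes for mitochondrial proteins are known targets of NRF1 and of ETS-family factors such as GABP, and YY1 is another factor tied to them. RefSeq's promoter table (GRCm38.p6) held 58 of the 66 members and 27025 genes in all, and the 250 bases before each start were searched on both strands for 3 exact motifs. CCGGAAG, an ETS core, stood in 14 members (24.1%) and in 7.83% of all genes. The NRF1 palindrome, printed in capitals in the Mrpl39 line below, stood in 3 members (5.17%) and in 0.877% of all genes. AAGATGGCG, a YY1 core, stood in 2 members (3.45%) and in 0.711%. At least 1 of the 3 stood in 19 members (32.8%) and in 9.10% of all genes. The members' windows had a median GC content of 58.4%, against 52.4% over all windows, and what part GC content has in these shares was not tested. A match is a run of letters, not a shown binding site.

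The lines below give one member for each motif, with the motif in capitals (on the opposite strand for Mrpl36 and Mrpl52), each chosen because no other RefSeq gene overlaps its window. Mrpl39 is chr16:84735245-84735494 on the minus strand, Mrpl36 is chr13:73330759-73331008 on the plus strand, and Mrpl52 is chr14:54426659-54426908 on the plus strand. The last line is the whole space between a pair of members that start back to back, Mrps11 on the plus strand and Mrpl46 on the minus strand: 41 bases at chr7:78783090-78783130, shown on the plus strand.
Mrpl39: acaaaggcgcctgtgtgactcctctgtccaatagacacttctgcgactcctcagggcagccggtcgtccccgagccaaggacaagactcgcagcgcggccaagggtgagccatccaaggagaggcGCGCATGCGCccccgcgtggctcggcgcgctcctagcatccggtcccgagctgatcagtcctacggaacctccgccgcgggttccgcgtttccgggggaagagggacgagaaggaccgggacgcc
Mrpl36: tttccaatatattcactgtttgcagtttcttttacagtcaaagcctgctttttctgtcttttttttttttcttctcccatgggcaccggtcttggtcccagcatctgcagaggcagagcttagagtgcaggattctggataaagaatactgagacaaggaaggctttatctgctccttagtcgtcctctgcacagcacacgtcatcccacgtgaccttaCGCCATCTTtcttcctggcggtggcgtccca
Mrpl52: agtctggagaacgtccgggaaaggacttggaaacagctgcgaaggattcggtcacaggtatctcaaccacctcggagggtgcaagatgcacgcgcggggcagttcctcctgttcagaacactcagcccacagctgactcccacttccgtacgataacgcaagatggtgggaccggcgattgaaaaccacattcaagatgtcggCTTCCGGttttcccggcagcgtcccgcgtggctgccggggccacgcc
Mrps11 and Mrpl46: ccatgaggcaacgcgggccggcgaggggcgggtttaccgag

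The family's level was higher in bound than in total RNA. Within each array, the median log2 level of the 66 members was taken. It lay between 9.12 and 9.35 in the 5 cortex total arrays, whereas it was 10.63 ± 0.06 (SD, n = 3) in astrocytes and 10.11 ± 0.08 in neurons. In cortical Olig2 cells it was 9.94 ± 0.08, in mature oligodendrocytes 9.60 ± 0.06 and in progenitors 9.47 ± 0.14. These ranges did not overlap that of cortex total RNA except in progenitors, where 1 of 3 arrays, at 9.34, lay inside it.

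In each tumour model the bound arrays lay above their own total RNA. The members' median was 10.16 ± 0.19 (SD, n = 3) in bound and 9.10 ± 0.28 in total RNA of Pdgf tumours, 10.33 ± 0.07 and 9.16 ± 0.09 in Pdgf Cre tumours, and 9.89 ± 0.08 and 8.68 ± 0.28 in Recruited tumours. No array of one kind reached the other kind within a model. Astrocytes held the highest group mean of 21 members, Pdgf Cre bound RNA of 17 and neurons of 14. Recruited total RNA held the lowest group mean of 42 of the 66. The same counts were not made over all genes. Recruited total RNA was also the group with the widest spread between arrays, with a median SD of a gene of 0.45.

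**Figure D1:**
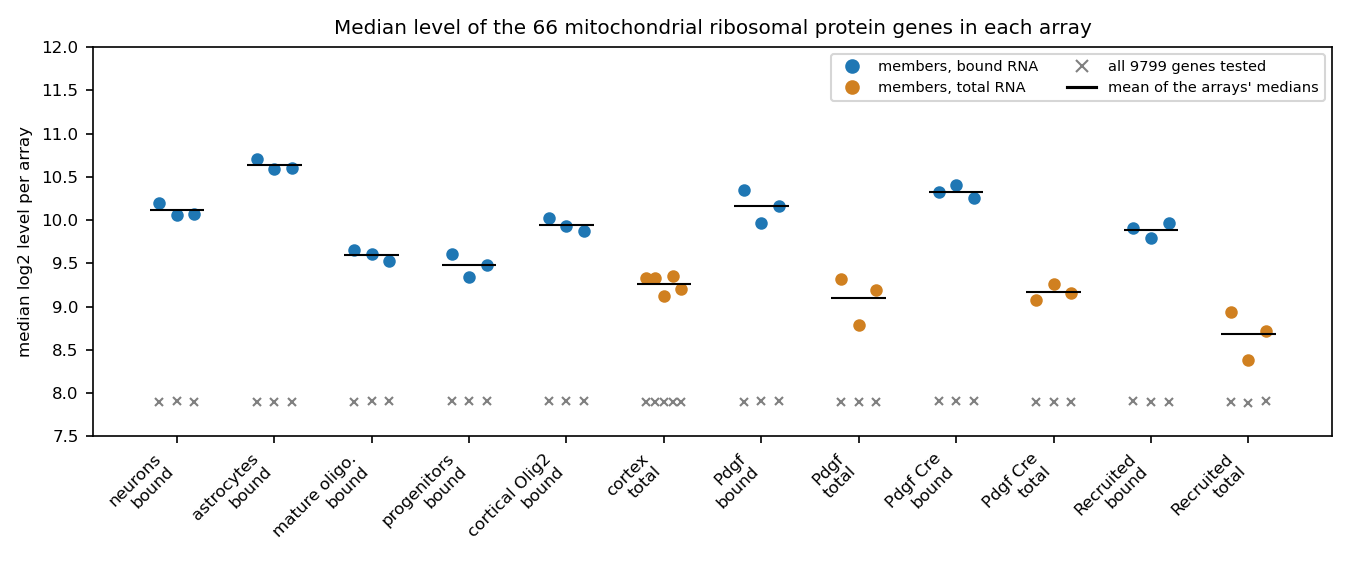
Median log2 level of the 66 mitochondrial ribosomal protein genes in each of the 38 arrays (circles; blue, bound RNA; orange, total RNA), with the mean of each group's arrays as a line and the median over all 9799 tested genes as grey crosses. The members' medians run from 8.38 to 10.70, and the bound arrays of each tumour model lie above all total arrays of that model.

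A gene was called higher or lower in a comparison at an adjusted p under 0.05 and a difference of at least 2-fold, in 1 limma fit of all 12 groups with Benjamini-Hochberg adjustment over 9799 genes. In neurons, 27 of the 65 members rose over cortex total RNA and none fell, where 13.4% of all genes rose and 14.8% fell. In astrocytes 40 rose and none fell, against 31.1% and 29.8% of all genes. In mature oligodendrocytes 16 rose and 2 fell, against 25.2% and 27.7%. In progenitors 7 rose and 3 fell, against 24.4% and 23.8%. In cortical Olig2 cells 20 rose and none fell, against 29.5% and 26.6%. As shares of the members, the rises were 41.5% in neurons and 61.5% in astrocytes, each above the share of all genes, but 24.6% in mature oligodendrocytes and 30.8% in Olig2 cells, near it, and 10.8% in progenitors, under it. The falls were fewer than the share of all genes in each of the 5. These comparisons share the cortex total arrays.

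Over the 65 members the median log2 difference was 1.14 for astrocytes, 0.94 for neurons, 0.74 for cortical Olig2 cells, 0.28 for mature oligodendrocytes and 0.08 for progenitors, beside medians of all genes between -0.04 and 0.07. With group means under the dim limit raised to it, these medians were 1.14, 0.84, 0.63, 0.24 and 0.02. The size of a count depended on the scale between arrays. Under 3 other scalings, neurons had 52 to 64 members higher and astrocytes 24 to 57. Mature oligodendrocytes had 16 higher and 2 lower on the main scale and 39 higher and 1 lower with arrays centred on their median; progenitors had 7 and 3 on the main scale and 3 and 3 with spike-in scaling. The median of all genes itself moved under those scalings, to as much as 0.78 in neurons and -0.65 in astrocytes. The share of higher among all calls moved with it, from 47.5% to as much as 78.9% in neurons, from 47.6% to 66.1% in mature oligodendrocytes, from 51.0% to between 32.3% and 62.4% in astrocytes, and from 52.5% to 38.2% in Olig2 cells. Taken relative to the median of all genes, the members' median stayed, over the 4 scalings, between 0.91 and 1.18 in neurons, 1.13 and 1.40 in astrocytes, 0.67 and 0.69 in Olig2 cells and 0.32 and 0.60 in mature oligodendrocytes, while in progenitors it ran from -0.02 to 0.07 and so had no stable sign.

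**Figure D2:**
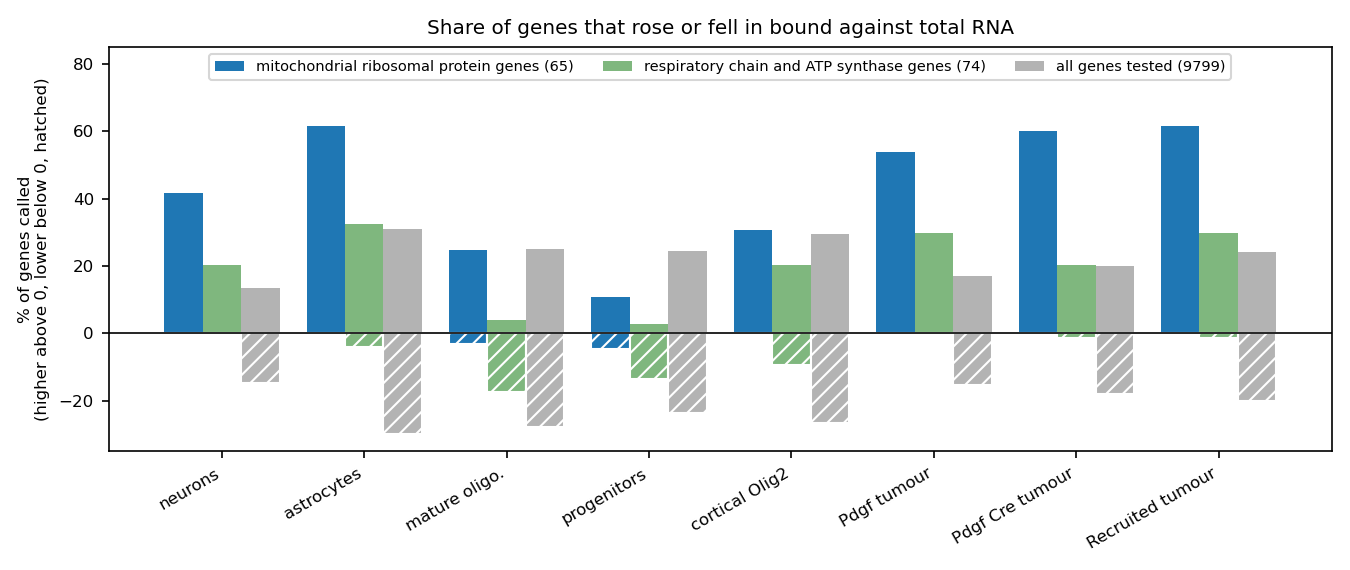
Percent of genes called higher (above 0) and lower (below 0, hatched) in bound against total RNA, for the 65 members tested, 74 genes of the respiratory chain and ATP synthase, and all 9799 genes. The members' bars above 0 run from 10.8% in progenitors to 61.5% in astrocytes and in Recruited tumours, and they have bars below 0 only in mature oligodendrocytes and progenitors.

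Astrocytes had large rises, some of them from dim levels, for which a fold is a lower bound and an order cannot be given. Mrpl55, a large-subunit protein without a bacterial counterpart, was at 8.79, 8.98 and 8.83 in astrocytes and between 4.40 and 5.76 in cortex total RNA, where its mean was under the dim limit. It was therefore at least 9.33-fold higher (adjusted p = 2.4e-15). Mrpl34, the counterpart of bacterial L34, was at 11.10, 10.84 and 11.08 in astrocytes and between 7.55 and 8.07 in cortex total RNA, all above the limit. Its difference of 3.27 ± 0.15 (SE) was 9.62-fold (adjusted p = 8.1e-18). Mrpl15, another protein with a bacterial counterpart, rose at least 6.10-fold, Mrpl51 at least 3.83-fold and Mrpl54 at least 2.33-fold. Mrpl50 rose 7.36-fold, from 7.45 to 10.33. Of the 40 members that rose, 7 were dim in total RNA and 33 were above the limit in both groups.

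In neurons Mrpl55 stood at 8.04, 8.18 and 7.81 in neurons and was at least 5.16-fold higher than in cortex total RNA (adjusted p = 3.2e-12). Mrpl14, which has a bacterial counterpart and lies at the face between the subunits, rose at least 4.30-fold; its arrays in neurons were at 7.81, 7.78 and 7.65. Mrpl15 rose at least 3.09-fold, Mrpl51 at least 2.36-fold and Mrpl54 at least 1.59-fold. Mrps11, the counterpart of bacterial S11 in the small subunit, was at 7.89, 7.88 and 7.91 in neurons and between 4.71 and 6.62 in cortex total RNA. In cortex total RNA Mrps11 had a mean of 5.66, barely above the dim limit, so the size of its rise is uncertain. It rose 4.68-fold, by 2.23 ± 0.32 (SE; adjusted p = 9.2e-07), and its arrays did not overlap.

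Mature oligodendrocytes held rises and 2 falls side by side. Mrpl14 rose at least 3.11-fold, Mrpl1 3.14-fold and Mrpl50 3.11-fold; Mrps7, the counterpart of bacterial S7, rose 2.70-fold, from 9.37 to 10.80. Mrpl51 rose at least 1.38-fold and Mrpl54 at least 1.02-fold, both from dim levels in total RNA. Mrpl32, whose maturation in mitochondria is a known step of ribosome assembly, fell by 1.45 ± 0.28 (SE; adjusted p = 3.0e-05). Its arrays were at 7.38, 7.74 and 7.09, all below the 8.69 to 9.02 of cortex total RNA. Mrps5 was called lower as well, but both its group means were dim (2.75 and 4.79), so no fold is given. Mrpl32 rose 3.65-fold in astrocytes.

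Progenitors had 7 rises and 3 falls, the fewest rises of the 5 populations. Mrps12, the counterpart of bacterial S12 at the decoding centre, was at 8.71, 8.49 and 8.10 in progenitors and between 9.92 and 10.14 in cortex total RNA. It fell by 1.59 ± 0.14 (SE; 3.0-fold; adjusted p = 7.6e-11). Mrpl34 fell by 1.52 ± 0.15 (adjusted p = 6.9e-10), with progenitor arrays at 6.32, 6.16 and 6.18. Mrpl38 fell by 1.00 ± 0.16 (adjusted p = 2.9e-06), just past the 2-fold limit. Against these, Mrpl50 rose 2.80-fold, Mrpl3 2.56-fold, Mrps7 2.52-fold, Mrpl39 2.42-fold, Mrpl52 2.09-fold and Mrpl1 2.08-fold. The log2 gap between 3' and 5' actin control probe sets, which widens as RNA is shortened from its 5' end, was 6.48 ± 0.47 (SD, n = 3) in progenitors and 4.57 ± 1.01 (n = 5) in cortex total RNA, and lay between 2.69 and 3.5 in the other groups; its part in the progenitor values was not tested.

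Cortical Olig2 cells, which span the lineage, had rises in both subunits. Mrps7 was at 11.46, 11.70 and 11.67 in these cells and between 9.18 and 9.48 in cortex total RNA, a 4.73-fold rise of 2.24 ± 0.17 (SE; adjusted p = 7.7e-13). Mrps11 rose 6.17-fold. In the large subunit, Mrpl36, the counterpart of bacterial L36, rose 6.08-fold (adjusted p = 6.8e-13). Its arrays were at 11.32, 10.81 and 10.74, against 7.93 to 8.48 in cortex total RNA. Mrpl52 rose 4.56-fold, Mrpl55 at least 3.64-fold and Mrpl54 at least 2.24-fold.

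**Figure D3:**
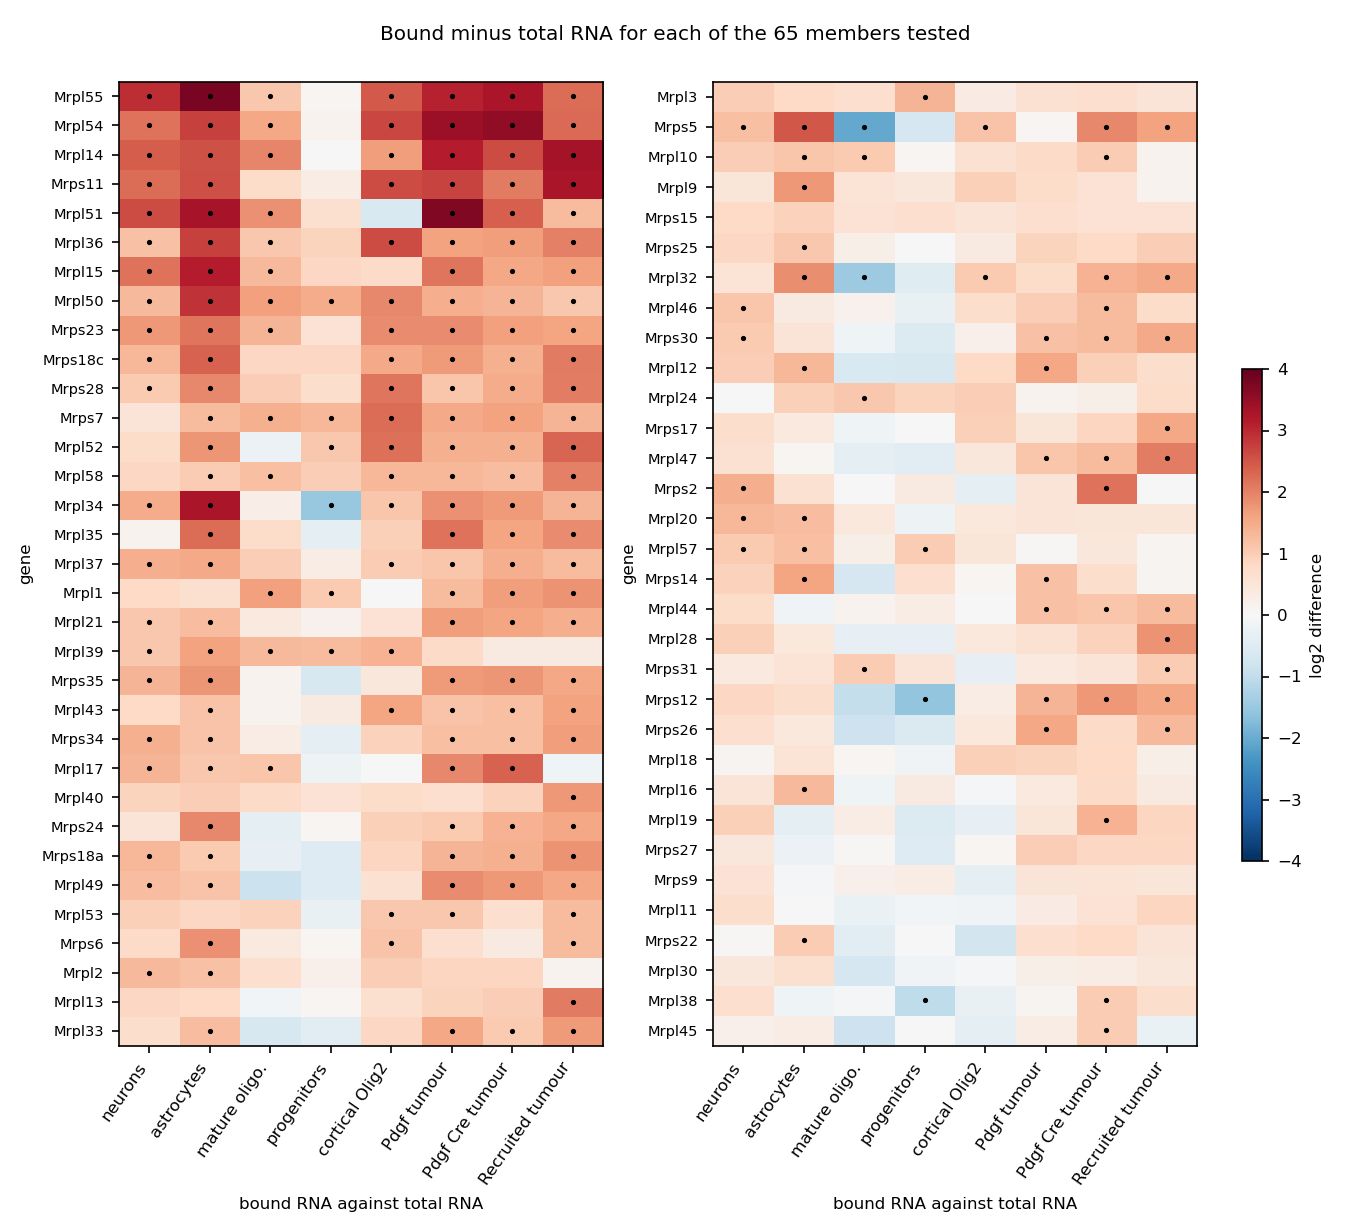
Log2 difference of bound minus total RNA for each of the 65 tested members (rows, sorted by their mean over the 8 comparisons, in 2 panels) in each comparison (columns); dots mark members called higher or lower. Mrpl55, Mrpl54 and Mrpl14 head the first panel, each from a dim mean in cortex total RNA; blue cells with dots are the falls of Mrps5 and Mrpl32 in mature oligodendrocytes and of Mrpl34, Mrps12 and Mrpl38 in progenitors.

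The 5 cortical populations were also compared directly, in 10 pairs added after the data were seen. Astrocytes exceeded progenitors in 34 members and were lower in none, where 24.6% of all genes were higher and 26.8% lower. Neurons exceeded progenitors in 30 and were lower in none (25.5% and 24.5% of all genes). Astrocytes exceeded mature oligodendrocytes in 28 and were lower in 1 (25.8% and 28.2%), and neurons exceeded them in 20 and were lower in 1 (27.6% and 23.3%). Mrpl34 showed the widest gap above the dim limit between astrocytes and progenitors, 4.79 ± 0.17 (SE). Mrps12 was 2.28 ± 0.16 higher in astrocytes and 2.43 ± 0.16 higher in neurons than in progenitors.

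Within the oligodendrocyte lineage, progenitors were below cortical Olig2 cells in 24 members and above them in 3 (18.3% of all genes were lower and 18.8% higher). Mature oligodendrocytes were below Olig2 cells in 17 and above in 4 (19.0% lower and 20.1% higher), although the Olig2 line covers both stages. Bound RNA of the Olig2 line also held more of the astrocyte markers than either stage, at 8.47 to 8.66 averaged over the list of 6. Their part in these differences was not tested. Between mature cells and progenitors 8 members were higher and 3 lower (19.9% and 18.8%). Neurons against Olig2 cells gave 5 higher and 4 lower (25.8% and 25.0%), astrocytes against Olig2 cells 12 and 0 (22.6% and 22.7%). Neurons against astrocytes gave 1 and 11 (29.3% and 27.6%). The largest called difference each way between neurons and astrocytes was that of a large-subunit member, with Mrpl35 lower in neurons by 2.09 ± 0.10 (SE) and Mrpl19 higher by 1.31 ± 0.20.

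These counts between populations moved with the scale between arrays. Counts are given on the deposited values, with median centring and with spike-in scaling, in that order. Brackets give, in the same order, the share of all genes higher in the population named first, then the share of higher among all calls. Mature oligodendrocytes exceeded progenitors in 21, 31 and 28 members and were lower in 1 each time (28.7%, 37.1%, 32.3%, then 64.6%, 73.3%, 69.7%). Astrocytes exceeded Olig2 cells in 21, 39 and 10 and were lower in 0, 0 and 1 (24.4%, 34.4%, 16.3%, then 51.8%, 65.7%, 35.8%). Neurons exceeded Olig2 cells in 42, 41 and 41 and were lower in none (45.1%, 41.9%, 41.6%, then 70.8%, 67.6%, 67.8%). Neurons against astrocytes gave 14, 7 and 22 higher and 3, 9 and 1 lower (42.8%, 33.8%, 48.0%, then 67.6%, 55.9%, 72.6%). Mature oligodendrocytes against Olig2 cells gave 7, 11 and 15 higher and 6, 4 and 4 lower (32.1%, 38.5%, 42.3%, then 67.9%, 74.1%, 78.1%). Astrocytes against mature oligodendrocytes gave 24, 30 and 9 higher and 2, 2 and 12 lower (21.8%, 24.8%, 14.2%, then 38.3%, 43.6%, 21.8%). Against progenitors they gave 44, 54 and 23 higher and 0, 0 and 1 lower (25.5%, 34.3%, 15.9%, then 48.5%, 62.3%, 29.0%). Neurons exceeded progenitors in 56, 55 and 48 and were lower in none (44.8%, 42.8%, 36.1%, then 71.2%, 69.2%, 63.1%). They exceeded mature oligodendrocytes in 38, 27 and 20 and were lower in 0, 1 and 3 (36.5%, 30.1%, 26.5%, then 64.6%, 55.2%, 50.5%). Progenitors were below Olig2 cells in 23, 26 and 19 and above in 2, 2 and 5 (19.2%, 18.6%, 22.8%, then 53.0%, 50.6%, 64.8%).

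The median of all genes moved as well, to as much as -1.08 for astrocytes against mature oligodendrocytes. Relative to it, the members' median kept its sign under the 4 scalings in each of the 10 pairs. It stayed between 1.11 and 1.43 for astrocytes against progenitors and 0.42 and 0.72 for astrocytes against Olig2 cells. It was between 0.18 and 0.33 for mature cells against progenitors, and between -0.42 and -0.23 for mature cells against Olig2 cells.

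Levels of single members ordered the populations differently. Mrpl34 ran from 11.01 in astrocytes through 9.22 in neurons and 8.85 in Olig2 cells to 8.02 in mature oligodendrocytes and 6.22 in progenitors. Mrps12 was at 10.86 in neurons, 10.71 in astrocytes and 10.31 in Olig2 cells, and at 9.06 in mature oligodendrocytes and 8.43 in progenitors. Mrpl58, which releases stalled mitochondrial ribosomes, had a narrower spread: its group means in these populations ran from 11.75 in neurons to 12.24 in Olig2 cells. Mrpl58 rose over cortex total RNA in astrocytes, mature oligodendrocytes and Olig2 cells.

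In the 3 tumour models, bound RNA of Olig2 cells was set against total RNA of the same tumour. In Pdgf tumours 35 members rose and none fell, where 16.9% of all genes rose and 15.3% fell. In Pdgf Cre tumours 39 rose and none fell (20.0% and 18.1% of all genes), and in Recruited tumours 40 rose and none fell (24.1% and 20.2%). The members' median log2 difference was 1.11, 1.22 and 1.29 in the same order, beside 0.05, 0.13 and 0.13 over all genes. With dim means raised to the limit, these medians were 1.05, 1.01 and 1.03. In Pdgf and Pdgf Cre tumours all 65 members had a difference above 0, and in Recruited tumours 63. Over the 4 scalings the members' median less that of all genes stayed between 1.06 and 1.26, although under the 3 other scalings the counts higher ran from 25 to 61, 27 to 64 and 22 to 59. The share of higher among all calls ran there from 17.9% to 83.4% in Pdgf tumours (52.4% on the main scale), 23.3% to 80.0% in Pdgf Cre (52.5%) and 28% to 76.5% in Recruited tumours (54.4%).

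Total RNA of a tumour holds other cells, and in such bulk samples fewer cells of a type and less RNA per cell cannot be told apart. Microglial and macrophage markers, averaged over the list of 6, lay between 10.40 and 11.18 in the arrays of Pdgf Cre total RNA and between 4.18 and 5.24 in its bound RNA, and between 10.56 and 10.91 against 4.84 and 5.63 in Pdgf tumours. In Recruited tumours they ran from 8.27 to 11.37 in total RNA and from 4.26 to 7.30 in bound RNA. Their part in the members' differences was not tested. Astrocyte markers, averaged over the list of 6, lay between 9.65 and 10.41 in bound RNA of Recruited tumours, with none of the 6 dim, and between 8.12 and 8.63 in its total RNA. In bound RNA of Pdgf and Pdgf Cre tumours they lay between 4.37 and 5.13, with 4 of 6 dim. In the Recruited comparison 3 of them rose and none fell, and 5 of the 6 mature oligodendrocyte markers rose, with a median of 2.52. Aldh1l1, the gene of the astrocyte reporter, was at 9.21 ± 0.38 (SD, n = 3) in bound RNA of Recruited tumours and 9.02 ± 0.03 in cortical Olig2 cells. The part of these markers in the members' rises was not tested. Without replicate 3 of the Recruited total RNA, 43 members rose and none fell, and the median was 1.46.

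Several large-subunit members rose in Pdgf and Pdgf Cre tumours from a dim level in total RNA. Mrpl54 was at 8.22, 6.67 and 7.21 in bound RNA of Pdgf tumours and between 3.04 and 4.43 in their total RNA, at least a 3.31-fold rise (adjusted p = 1.2e-09). Mrpl55 rose at least 3.03-fold in Pdgf and at least 4.73-fold in Pdgf Cre tumours. Mrpl14 rose at least 2.83-fold in Pdgf tumours and at least 1.82-fold in Recruited tumours. In Pdgf Cre tumours the difference was 6.13-fold, with both means above the limit. The total mean there, 5.68, was barely so, with arrays at 4.77, 6.65 and 5.62, so the size is uncertain. Mrpl51 rose at least 1.26-fold in Pdgf and at least 1.18-fold in Pdgf Cre tumours. Mrpl35, with all arrays above the limit, was at 8.65, 8.62 and 8.64 in bound and 6.37, 6.56 and 6.46 in total RNA of Pdgf tumours, a 4.50-fold rise of 2.17 ± 0.10 (SE; adjusted p = 6.4e-17).

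Among small-subunit members, Mrps11 rose 6.49-fold in Pdgf tumours and at least 4.84-fold in Recruited tumours, where its bound arrays were at 7.91, 7.40 and 8.45 and its total arrays at 4.52, 3.97 and 5.49. Mrps12 rose 2.56-fold in Pdgf tumours, 3.31-fold in Pdgf Cre tumours and 2.90-fold in Recruited tumours. Mrps2 rose at least 1.33-fold in Pdgf Cre tumours and was not called in the other models (0.52 and 0.03). In Recruited tumours Mrpl52 rose 5.0-fold and Mrps18c 4.26-fold, by 2.09 ± 0.18 (SE; adjusted p = 3.1e-11). Calls with both groups dim were 1 in Pdgf tumours and 2 in Recruited tumours, among them Mrpl54 at 5.11 and 2.84, for which no fold is given.

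The 3 models have no array in common, so their calls can be set beside each other. Of the 65 members, 30 rose in all 3 models, a result that 7.62% of all genes reached, and 16 rose in none. The share of all genes that rose in none was not counted. Of the 20 members that rose in cortical Olig2 cells, 15 were among those 30, which is 75% of the first list and 50% of the second. Over all 9799 genes, 2888 rose in Olig2 cells, 747 in all 3 models and 552 in all 4 (5.63%). The 75% and 50% are shares of called lists, and the 5.63% is a share of all genes tested. For all genes the like shares of called lists are 552 of 2888 and 552 of 747. The members' 75% is above the first of these, and their 50% is below the second. The 15 were Mrpl14, Mrpl34, Mrpl36, Mrpl37, Mrpl43, Mrpl50, Mrpl52, Mrpl54, Mrpl55, Mrpl58, Mrps7, Mrps11, Mrps18c, Mrps23 and Mrps28.

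Counted array by array, with no threshold, every bound array lay above every total array for 54 members in astrocytes (42.9% of all genes), 60 in neurons (38.7%), 44 in Olig2 cells (42.8%), 32 in mature oligodendrocytes (38.8%) and 22 in progenitors (39.5%). The same held for 54 members in Pdgf (34.2%), 63 in Pdgf Cre (42.6%) and 49 in Recruited tumours (30.7%). The test was then read without the 2-fold condition, at limma's adjusted p under 0.05 alone. In neurons 55 members were higher and none lower, where 29.6% of all genes were higher and 25.8% lower. In astrocytes 55 were higher and none lower (41.1% and 38.9% of all genes), in Olig2 cells 44 and 3 (41.0% and 36.9%), in mature oligodendrocytes 28 and 10 (36.5% and 38.9%) and in progenitors 22 and 13 (37.6% and 35.9%). In Pdgf tumours 57 were higher and none lower (29.9% and 24.4%), in Pdgf Cre tumours 60 and none (35.1% and 26.6%) and in Recruited tumours 52 and none (37.7% and 29.7%).

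Over all 8 bound against total comparisons, Mrpl50 alone rose in each. Its cortex total arrays lay between 7.29 and 7.86, and its bound arrays of the 5 cortical populations between 8.65 and 10.36. In Recruited tumours, its bound arrays at 9.78, 9.81 and 9.69 exceeded total arrays at 9.16, 8.47 and 8.41, a 2.12-fold rise. Mrpl14, Mrpl36, Mrpl54, Mrpl55, Mrps7 and Mrps23 rose in 7 comparisons. At the other end, 6 members rose in none: Mrpl11, Mrpl18, Mrpl30, Mrps9, Mrps15 and Mrps27. How many of all genes rose in all 8, in 7 or in none was not counted. These counts thus have no share of all genes beside them, and the 5 cortical comparisons share the cortex total arrays. Mrpl11, which sits in the factor-binding stalk of the large subunit, was already at 11.92 to 12.09 in cortex total RNA and at 12.02, 11.97 and 12.05 in astrocytes.

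**Figure D4:**
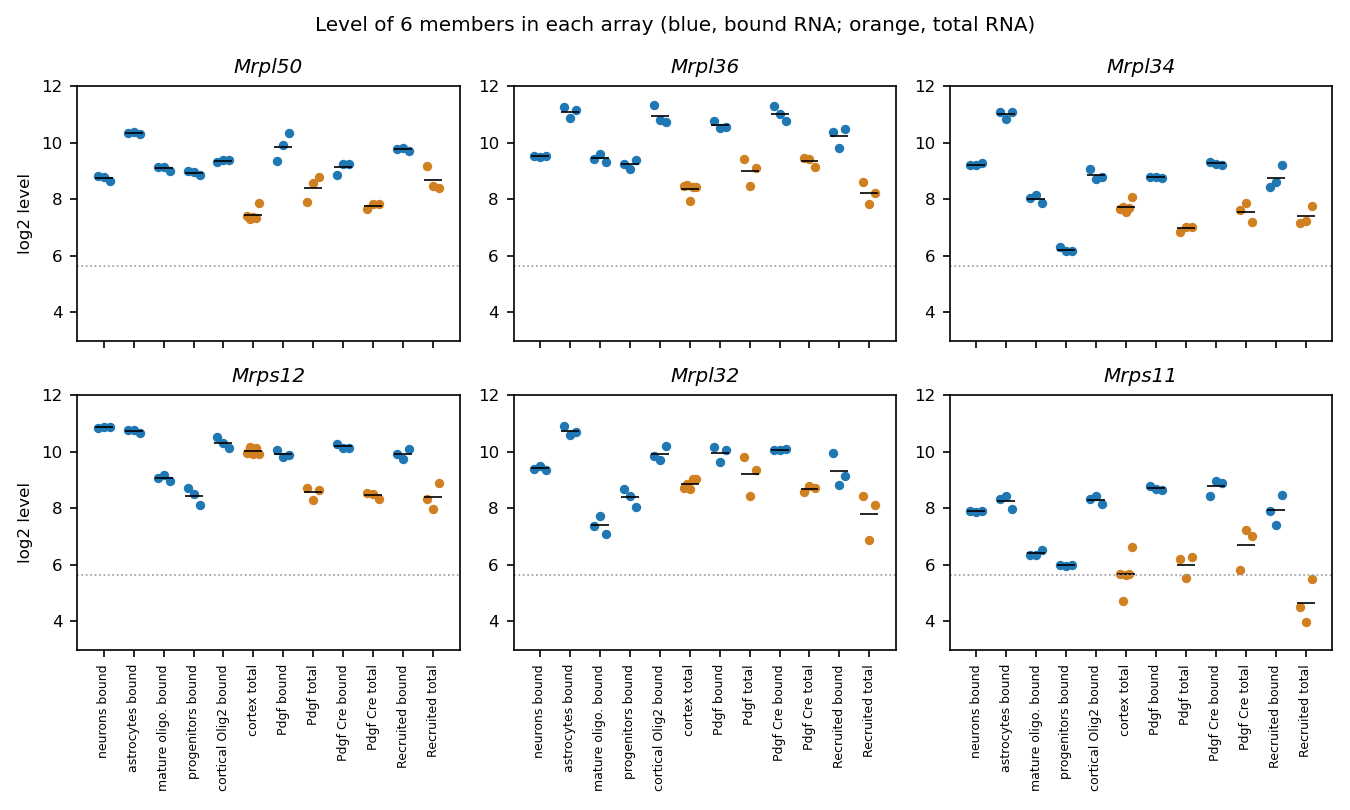
Log2 level of 6 members in every array (blue, bound RNA; orange, total RNA; lines, group means; dotted line, the dim limit of 5.64). Mrpl50 is higher in bound than total RNA throughout, Mrpl34 and Mrps12 drop in progenitors, Mrpl32 drops in mature oligodendrocytes, and Mrps11 is near or under the limit in cortex and Recruited total RNA.

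Bound RNA of the tumours was set against bound RNA of cortical Olig2 cells. With the 3 models averaged, 1 member rose and none fell, where 13.5% of all genes rose and 14.4% fell. The member was Mrpl51, at 3.82, 3.64 and 3.54 in cortical Olig2 cells and between 5.62 and 6.12 in bound RNA of the tumours. The rise was at least 1.15-fold, since the cortical level was dim. The members' median difference was 0.14, and single differences ran from -0.88 to 2.19 with a median SE of 0.16. Without the 2-fold condition, 13 members were higher and 8 lower at an adjusted p under 0.05 in the same limma fit, where 29.4% of all genes were higher and 27.7% lower.

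Total RNA of the tumours lay below that of cortex for 6 members and above for none, where 24.6% of all genes fell and 22.7% rose. Without the 2-fold condition 36 were lower and 9 higher at an adjusted p under 0.05 by limma, where 42.1% of all genes were lower and 37.4% higher. The members' median was -0.40, and -0.13 with dim means raised to the limit. Mrps12 fell by 1.55 ± 0.11 (SE; adjusted p = 2.5e-13), from 9.92 to 10.14 in cortex to 7.95 to 8.87 over the 9 tumour arrays, which did not overlap. Mrpl38 fell by 1.24 ± 0.12 (adjusted p = 3.6e-10). Mrpl1 fell from 5.77 to a dim level, at least 1.09-fold. Mrpl17 and Mrpl14 were dim in both, so their calls carry no size. Mrpl19, above the limit in both, had arrays that overlapped. On the deposited values with no further scaling, 2 members were higher and 1 lower, and with arrays centred on their median 0 and 25. Over all genes, 2866 were higher and 1608 lower of 9818 on the deposited values, and 1610 and 3602 of 9830 with median centring. Relative to all genes the members' median was below 0 under each scaling, from -0.34 to -0.26. Without replicate 3 of the Recruited total RNA 1 member was higher and 7 were lower.

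The bound to total difference itself was compared between the tumours and cortical Olig2 cells. It was larger in tumours for 14 of 65 members and smaller for none, where 21.8% of all genes were larger and 22.1% smaller. The count of larger members was thus near the share of all genes. Of the 14, 8 were above the dim limit in all 8 groups that enter this comparison: Mrps22, Mrpl19, Mrps12, Mrps35, Mrpl44, Mrpl49, Mrps30 and Mrpl47. Their differences of differences ran from 1.00 for Mrpl47 to 1.39 for Mrps22. The 6 others, Mrpl51, Mrpl1, Mrpl17, Mrpl14, Mrps2 and Mrpl15, had a dim mean in at least 1 of these groups, so their calls carry no measured size and no order. For Mrps22 the bound minus total difference was -0.73 in cortex and 0.67, 0.81 and 0.50 in the 3 models. Mrps12 gained 1.24, while its bound level was 10.31 in cortical Olig2 cells and 9.91, 10.18 and 9.92 in the 3 models, and its total level was 10.01 in cortex and 8.46 in tumours. The count was 14 without replicate 3 of the Recruited total RNA, 4 on deposited values and 43 with arrays centred on their median. Of all genes 15.4% were larger on deposited values and 40.8% with median centring.

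By subunit, the calls were spread over both, and the shares of all genes are those given above for each comparison. In astrocytes 26 of 42 large-subunit and 14 of 23 small-subunit members rose, in neurons 17 and 10, and in cortical Olig2 cells 13 and 7. In mature oligodendrocytes 13 large-subunit members rose and 1 fell, and 3 small-subunit members rose and 1 fell. In tumours the counts were 22 and 13 (Pdgf), 26 and 13 (Pdgf Cre) and 24 and 16 (Recruited). Mrps18a and Mrps30 carry small-subunit names but sit in the large subunit, as background.

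Proteins with a bacterial counterpart were set beside those without one. Of 26 large-subunit proteins with a bacterial counterpart 16 rose in astrocytes, and of 17 without one 10 rose; their medians were 1.20 and 1.14. In the small subunit 8 of 13 with a counterpart rose and 5 of 8 without, with medians of 1.57 and 1.05. In Recruited tumours the medians of the same 4 lists were 1.11, 1.26, 1.54 and 1.16.

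Mrps18a and Mrps18c descend from 1 bacterial protein and were the measured members of that set of 3 (Mrps18b was not analysed here). Mrps18c rose 5.10-fold in astrocytes, with arrays at 10.85, 10.95 and 10.77 against 8.17 to 8.90 in cortex total RNA. Mrps18a rose 2.07-fold there, at 10.15, 10.16 and 10.19 against 8.97 to 9.19. Both rose in neurons (1.33 and 1.32), and in all 3 tumours. In cortical Olig2 cells Mrps18c rose by 1.5 ± 0.16 (SE), while Mrps18a had 0.87 and was not called. In progenitors neither was called (0.84 and -0.53).

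The pair that starts back to back, Mrps11 and Mrpl46, was singled out after its values were seen. Mrps11 rose in 6 of the 8 comparisons and Mrpl46 in 2, neurons (by 1.11) and Pdgf Cre tumours (by 1.26). In cortical Olig2 cells the differences were 2.62 and 0.71. Mrpl46 was at 10.98, 11.12 and 10.95 there and at most 10.55 in cortex total RNA, and its arrays did not overlap. Mrps11 was much nearer the dim limit in total RNA. The members printed for their motifs also differed: Mrpl36 rose in 7 comparisons, Mrpl52 in 6, and Mrpl39 in the 5 cortical ones and in no tumour (0.76, 0.37 and 0.35).

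The members were split by their mean level over all arrays. The lowest 22 members (4.80 to 8.74) had 15 rises in neurons, 16 in astrocytes and 19 in Pdgf Cre tumours. The highest 22 (10.65 to 12.71) had 4, 10 and 7. In Recruited tumours the counts were 15 and 12, and in cortical Olig2 cells 8 and 6. In Pdgf tumours they were 15 and 7, in mature oligodendrocytes 8 and 3, and in progenitors 2 and 3. All genes were not split by level, so whether the members differ from other genes in this was not tested. Among members above the dim limit in all 12 groups, the widest range of group means was that of Mrpl34 (4.79), then Mrpl52 (3.57) and Mrpl32 (3.32). Mrpl51, Mrps5, Mrpl55, Mrpl14 and Mrpl54 also ranged widely, but each had a lowest group mean under the limit, so the size of their range was not measured.

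The narrowest range was that of Mrpl24 (1.09), then Mrpl57 (1.22), Mrpl18 (1.29), Mrpl10 (1.30), Mrps27 (1.43) and Mrpl2 (1.46). Mrpl24 was lowest in neurons, at 11.53, 11.61 and 11.37, and highest in mature oligodendrocytes, at 12.55, 12.46 and 12.78. Over the 12 group means, each member's correlation with the median of the others ran from 0.42 for Mrpl39 to 0.97 for Mrpl55, with a median of 0.77, and 44 members reached 0.7. The groups share processing within each run, so this is a description of 12 points.

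Genes that work with the mitochondrial ribosome were counted from lists, to be read beside the shares of all genes. Those were 13.4% higher and 14.8% lower in neurons, 31.1% and 29.8% in astrocytes, 29.5% and 26.6% in Olig2 cells, 25.2% and 27.7% in mature oligodendrocytes, and 24.4% and 23.8% in progenitors. In Pdgf, Pdgf Cre and Recruited tumours they were 16.9%, 20.0% and 24.1% higher and 15.3%, 18.1% and 20.2% lower. Of 3 measured proteins of the mitochondrial ribosome without an Mrp name, Chchd1, a small-subunit protein, rose in astrocytes (1.07), cortical Olig2 cells (1.09) and all 3 tumours (1.21, 1.02 and 1.92). Gadd45gip1, a large-subunit protein, rose at least 1.56-fold in Pdgf Cre and at least 1.74-fold in Recruited tumours and fell at least 1.62-fold in progenitors, each from or to a dim level. Of 21 assembly factors 8 rose in neurons and none fell, 10 rose and 2 fell in astrocytes, 9 and 1 in mature oligodendrocytes, 7 and 2 in progenitors and 7 and 0 in Olig2 cells. In the tumours 5, 11 and 8 rose and none fell. Tfb1m, a methyltransferase for the small rRNA, was dim in cortex total RNA and rose at least 4.46-fold in mature oligodendrocytes and at least 3.5-fold in Olig2 cells. Gtpbp10, a GTPase of large-subunit assembly, rose at least 4.72-fold in astrocytes.

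Of 12 mitochondrial translation factors 5 rose and 1 fell in neurons and in astrocytes, and 3 rose in each tumour model, with 1, 0 and 2 falls. Mtif3, an initiation factor, rose in neurons (1.58), astrocytes (1.42), Olig2 cells (1.39), and in the tumours at least 1.36-fold, 2.57-fold and 2.30-fold over dim total levels. Lrpprc, which stabilises mitochondrial mRNA, fell at least 7.24-fold to a dim level in astrocytes and by 2.72 in Olig2 cells, while its partner Slirp rose there by 1.74 and 1.44. Of 16 tested mitochondrial aminoacyl-tRNA synthetases 6 rose in neurons and none fell, and 6 rose and 2 fell in astrocytes. Of 9 genes for mitochondrial DNA maintenance and transcription 7 rose in Recruited tumours and none fell; Ssbp1, the mitochondrial single-strand DNA-binding protein, rose at least 1.95-fold there and at least 1.46-fold in progenitors.

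Among 10 regulators of mitochondrial biogenesis the calls went both ways. Ppargc1b, a coactivator, fell in all 8 comparisons; its bound level was above the dim limit in neurons alone, where it fell by 3.14. Nrf1, whose palindrome was searched for above, was called higher in all 8, but its mean was above the dim limit only in bound RNA of Pdgf Cre tumours, 6.69, which is at least 2.07-fold over their total RNA.

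Mitochondrial ribosomes make subunits of the respiratory chain, whose nuclear genes were counted as well. Of 74 tested genes of the respiratory chain and ATP synthase 15 rose and none fell in neurons and 24 rose and 3 fell in astrocytes. In mature oligodendrocytes 3 rose and 13 fell, and in progenitors 2 rose and 10 fell. In cortical Olig2 cells 15 rose and 7 fell, and in the tumours 22, 15 and 22 rose and 0, 1 and 1 fell. Their medians were 0.43, 0.73, -0.43, -0.22 and 0.25 in the cortical comparisons and 0.64, 0.58 and 0.73 in the tumours, each below the members' median of the same comparison. Among 15 cytosolic ribosomal protein genes the arrays measured, none was called in neurons, 3 rose and 1 fell in astrocytes, and 1 rose and 1 fell in each tumour model; 1 rose and 6 fell in mature oligodendrocytes. Their medians were 0.34 in neurons and -0.13 in astrocytes.

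**Figure D5:**
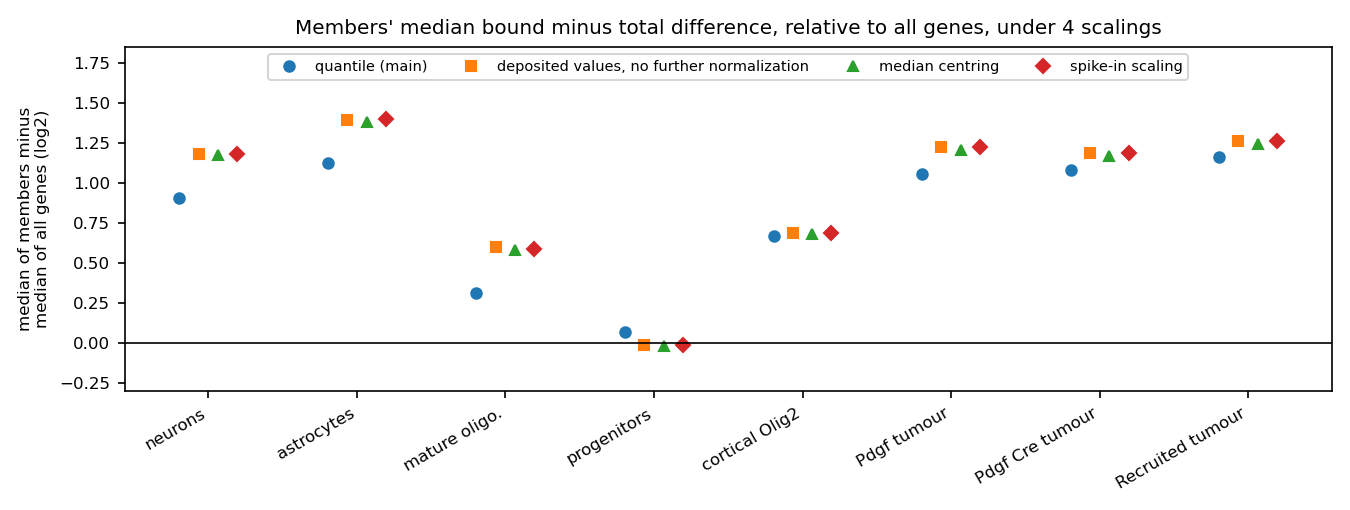
Median log2 difference of the members less that of all genes tested, for bound against total RNA in the 8 comparisons, on the main scale (quantile) and under 3 other scalings. Values lie between 0.32 and 1.40 except in progenitors, where they run from -0.02 to 0.07.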

How the data were processed

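Affymetrix arrays of 38 samples in 12 groups were used as deposited: log2 values made by the authors with GCRMA, per the submitters' processing notes (version not stated), after 2 rounds of amplification and biotin labelling per the labels' protocols. Of 16395 probe sets, 64 were controls, 687 had no gene in the platform annotation and 15644 had 1. The arrays were quantile normalized together and fitted with limma 3.58.1 in R 4.3.3, as 1 model of 12 groups with 26 residual degrees of freedom; genes above log2 of 50 in at least 3 arrays (9799) were tested, with Benjamini-Hochberg adjustment. A change was called at an adjusted p under 0.05 and at least 2-fold. A group mean below that limit is dim: a fold against it is given as "at least", the brighter mean over the limit, and none is given where both are dim. The number of arrays limits the precision.

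Members and lists were chosen with earlier results of these data known. Named genes are, per comparison, up to 6 members with the largest rises and up to 6 with the largest falls among those called with no overlap between arrays, the members with the widest and narrowest range over groups, the Mrps18 paralogues, dim members, and up to 3 genes of each other list with the largest called change; other genes named were chosen after their values were seen. Replicate numbers pair bound and total arrays in the tumours, where same-numbered arrays deviated together (correlations of 0.266 to 0.626 over 9 pairs), but not in cortex (-0.189 to 0.214). The 10 comparisons between cortical populations were added after the data were seen. The fitting was tested on simulated data. Alternatives were the deposited values without further scaling, median centring, spike-in scaling, other filters, the replicate block, fits of only the arrays compared, and leaving out each array. Promoter sequences are from RefSeq (GRCm38.p6).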

Additional observations from a re-analysis of the deposited data

Results flagged for a closer look

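In the 5 cortex total arrays, 1 array lay far from the other 4 for 11 of the 66 members, by Dixon's gap test, which chance passes in about 1 of 20 groups. The test was run on the members alone, so no share of all genes stands beside the 11. Since the members share the same arrays, their gaps are not independent, and 11 cannot be read against 1 in 20. In replicate 5 these were Mrpl11 (log2 level 11.92), Mrpl40 (10.15), Mrpl50 (7.86), Mrpl54 (4.83) and Mrps15 (10.14). In replicate 2 they were Mrpl17 (5.25) and Mrpl43 (11.31), in replicate 3 Mrpl19 (7.62) and Mrpl36 (7.93), and in replicate 4 Mrpl18 (10.69) and Mrpl57 (7.29).

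The bound to total difference was larger in the tumours than in cortical Olig2 cells, by the limma test of that difference, for 14 of 65 members. It was smaller for none. Of all genes 21.8% were larger and 22.1% smaller, so the count of larger members was near the share of all genes. For 8 of the 14 members every group that enters the comparison had a mean above the dim limit, and the differences of log2 differences were 1.39 for Mrps22, 1.27 for Mrpl19, 1.24 for Mrps12, 1.23 for Mrps35, 1.22 for Mrpl44, 1.12 for Mrpl49, 1.11 for Mrps30 and 1.00 for Mrpl47. The 6 others had a mean under the limit in at least 1 group. Their fitted values, 3.07 for Mrpl51, 1.58 for Mrpl1, 1.39 for Mrpl17, 1.35 for Mrpl14, 1.31 for Mrps2 and 1.00 for Mrpl15, rest on levels that have no order and are not measured sizes.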

How the results depend on the processing

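Counts of members called depended on the scale between arrays. On the deposited values, neurons had 63 higher, progenitors 4 higher, Pdgf and Recruited tumours 1 lower each, tumour against cortex total RNA 2 higher and 1 lower (3 in all), and the difference of bound to total differences 4. With median centring, neurons had 64 higher, mature oligodendrocytes 39 higher and 1 lower (40 in all), Pdgf tumours 61, Pdgf Cre tumours 64, tumour against cortical Olig2 bound RNA 2 higher, tumour against cortex total RNA 25 lower, and the difference of differences 43. With spike-in scaling, neurons had 52 higher, astrocytes 24 higher and 2 lower (26), mature oligodendrocytes 28 higher (30 in all), progenitors 3 higher (6 in all), Olig2 cells 2 lower, Pdgf tumours 1 lower, Recruited tumours 22 higher and 1 lower (23), and tumour against cortex total RNA 2 lower. A filter at a signal of 200 left 1 lower in mature oligodendrocytes and 0 higher in tumour against cortical Olig2 bound RNA. Between cortical populations, whose counts under the other scalings stand with those pairs, that filter gave 2 higher in neurons and 1 each in mature oligodendrocytes and progenitors over Olig2 cells, 5 higher in mature oligodendrocytes over progenitors and 0 lower in astrocytes against mature oligodendrocytes. Leaving out 1 array gave 3 higher in neurons over astrocytes (without astrocyte replicate 2) and 1 lower in astrocytes against Olig2 cells (without replicate 1 of either). The cause of these shifts was not tested. Leaving out 1 array gave 1 to 2 higher in tumour against cortical Olig2 bound RNA (2 without replicate 2 of Pdgf or of Recruited bound RNA) and 0 to 1 higher in tumour against cortex total RNA (1 without Pdgf total replicate 2 or Recruited total replicate 3); the other counts stayed within 1.5 times. With the replicate number as a block the counts higher were 28, 38, 17, 7 and 22 in cortex, in the order neurons, astrocytes, mature oligodendrocytes, progenitors and Olig2 cells, and 35, 39 and 40 in the tumours, and no count moved by over 1.5 times. Named differences lost their call in 13 cases on deposited values, 3 with median centring, 11 with spike-in scaling and 5 on leaving out an array. None that was tested turned its direction. With the filter at a signal of 200, only 40 of the 64 named differences were tested, and those kept their call. The others were filtered out, so that setting says nothing of them.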
